A study of Mus musculus with 16 samples.

Results

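The transcription factor p53, encoded by Trp53 in the mouse, switches on genes that stop the cell cycle, start apoptosis, dampen growth and oxidative stress and repair DNA. It binds response elements built of a pair of half-sites, usually near the start or in the first intron of the gene. Its level is held down by Mdm2, itself a p53 target, and Mdm2 is in turn held off by the p19Arf product of Cdkn2a, which Myc activity raises. The genes described here are 35 p53 targets chosen by symbol. All 35 were found among the 24421 genes of the tables keyed by symbol and in the table of normal tissues, which has 51912 entries keyed by Ensembl identifier, and all 35 passed the filter on low counts in every comparison. They were not chosen by a measured value, but earlier results of the same data were known when the list was drawn up.

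Polyadenylated RNA was counted in 16 libraries of C57BL/6 mouse organoids, cultures grown from tumours or from normal tissue. Lung-LMP1 (n = 3) and LMP1 (n = 2) carry the genotype TMPL, which is Trp53-/-, Myc, sgCdkn2a and LMP1, an Epstein-Barr virus membrane protein that signals like a tumour necrosis factor receptor. Lung-Ctr (n = 2) and Ctr (n = 3) carry TMP, the same alleles without LMP1. All 4 tumour groups therefore share the loss of Trp53, the added Myc and the Cdkn2a guide, and by label none keeps p53. Normal_nasopha (n = 3) and Normal_lung (n = 3) are untreated organoids of normal nasopharynx and lung. The labels state that tumours grew in recipient mice after transplantation into the nasopharynx. They give no promoter or vector for Myc or LMP1 and no age, and they do not say whether replicates are separate animals, clones or cultures. The sources differ on stage. Each TMPL library is described as metastasis and each TMP library as primary, whereas the series' design text names primary and metastasized tumours of both genotypes. Stage is therefore not assigned to any group here, its part in the comparisons among tumours cannot be told apart from that of genotype or of the Lung prefix, and that prefix is used only as a name.

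Only 3 normal columns share the tumours' gene symbols. They were deposited beside Ctr and headed as lung in a table named for nasopharynx, and they are called the comparator here. Across 22549 shared symbols each correlated best with the Normal_nasopha library of its own number (Pearson r across genes, 0.981 to 0.982, against 0.883 to 0.890 with Normal_lung), so the comparator does not add to Normal_nasopha as independent evidence. Total counts were 12535166 to 18067227 in tumours and comparator and 20138142 to 21737184 in the normal tissues. CPM below are counts scaled by the library's total count, and the tests scale by TMM factors. The 7 genes that mark lung epithelium, Nkx2-1 and the surfactant genes among them, summed to 0.813 to 27.8 CPM in the tumours and 72.3 to 258 CPM in the comparator, and Nkx2-1 was at 0 in every tumour library. In bulk RNA fewer cells of a type and less RNA per cell cannot be told apart.

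Trp53 transcripts were counted in every library. Trp53 had 81.8, 100.4 and 106 CPM in the Lung-LMP1 libraries, 105 and 109 in the LMP1 pair, 58.3 and 86.0 in the Lung-Ctr pair and 58.1, 77.8 and 65.7 in Ctr, against 156, 100.3 and 63.3 in the comparator. The ranges overlapped and the difference did not pass (log2 fold change -0.38, SE 0.23, adjusted p = 0.2 by edgeR, mean of the 4 tumour groups over the comparator). The labels do not give the deleted part of Trp53, so a count over the whole gene does not check the p53-null label.

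Sequences that resemble p53 response elements lie close to the start of several members. RefSeq windows (GRCm38.p6) from 250 bases before to 50 after a start were available for 27 of the 35 genes, in 43 windows. A pair of p53 half-sites, with at most 1 base between them and at most 2 mismatches in all outside the invariant C and G of each core, lay in a window of 5 members: Bax, Ccng1, Cdkn1a, Ckap2 and Gtse1. The same pattern was found for 0.807% of all 27025 symbols with a window, and single exact half-sites for 10 members and 9.55% of symbols. The half-site reads alike on both strands, so 1 pass covered both, and full sites contain half-sites. The 4 sites that lie wholly before the start are printed because the genes that follow them moved in both directions in the tumours. Capitals mark the 10-base half-sites and lower case their surroundings.
Cdkn1a, chr17:29090908-29090967, plus strand, site 51 to 32 bases before the start: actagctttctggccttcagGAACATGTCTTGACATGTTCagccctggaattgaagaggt
Ccng1, chr11:40755442-40755501, minus strand, site 195 to 176 bases before the start: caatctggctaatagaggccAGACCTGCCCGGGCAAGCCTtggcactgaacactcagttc
Bax, chr7:45467059-45467119, minus strand, site 201 to 181 bases before the start: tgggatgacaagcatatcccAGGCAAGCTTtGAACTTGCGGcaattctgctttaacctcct
Ckap2, chr8:22185983-22186042, minus strand, site 203 to 184 bases before the start: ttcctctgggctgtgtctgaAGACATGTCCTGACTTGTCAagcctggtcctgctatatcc
The Cdkn1a and Ccng1 sites each had 1 mismatch and the Bax and Ckap2 sites 2. A match is a description of letters, not evidence of binding, and other windows and introns were not searched.

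Against the comparator, which resembles Normal_nasopha, most p53 targets were low in the tumours. Taking the mean of the 4 tumour groups over the comparator, 20 of the 35 members fell and 2 rose (edgeR adjusted p under 0.05), while 13 did not pass. Of all 14096 genes tested 25.8% fell and 18.9% rose, 44.7% in all, so 57.1% of members fell against 25.8% of genes, and 5.71% rose against 18.9%. The median log2 fold change was -0.86 over the members and -0.07 over all genes. All 10 tumour libraries lay below all 3 comparator libraries for 13 members (37.1%, against 11.7% of genes) and above them for 3 (8.57%, against 12.7%). The comparator had the highest mean of the 5 groups for 24 members, a count for which the share of all genes was not computed. Cell type markers moved in the same comparison: all 5 basal epithelial genes fell (median log2 fold change -2.96), as did 3 of 6 general epithelial genes. The groups were uneven. All 5 basal genes had log2 fold changes below 0 in each group, but 5 passed in LMP1, 3 in Ctr, 2 in Lung-Ctr and 1 in Lung-LMP1. Of the general epithelial genes 5 fell in LMP1, 1 in Ctr, 0 in Lung-Ctr and 1 in Lung-LMP1. The basal genes summed to 48.2 to 3997 CPM in the tumours against 3434 to 16979 CPM in the comparator, and the part of cell types in the member differences was not tested. By role, 8 of 11 apoptosis genes, 5 of 7 stress and metabolism genes, 3 of 8 cell cycle genes, 3 of 5 DNA repair genes and 1 of 4 death receptor and surface genes fell.

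**Figure D1:**
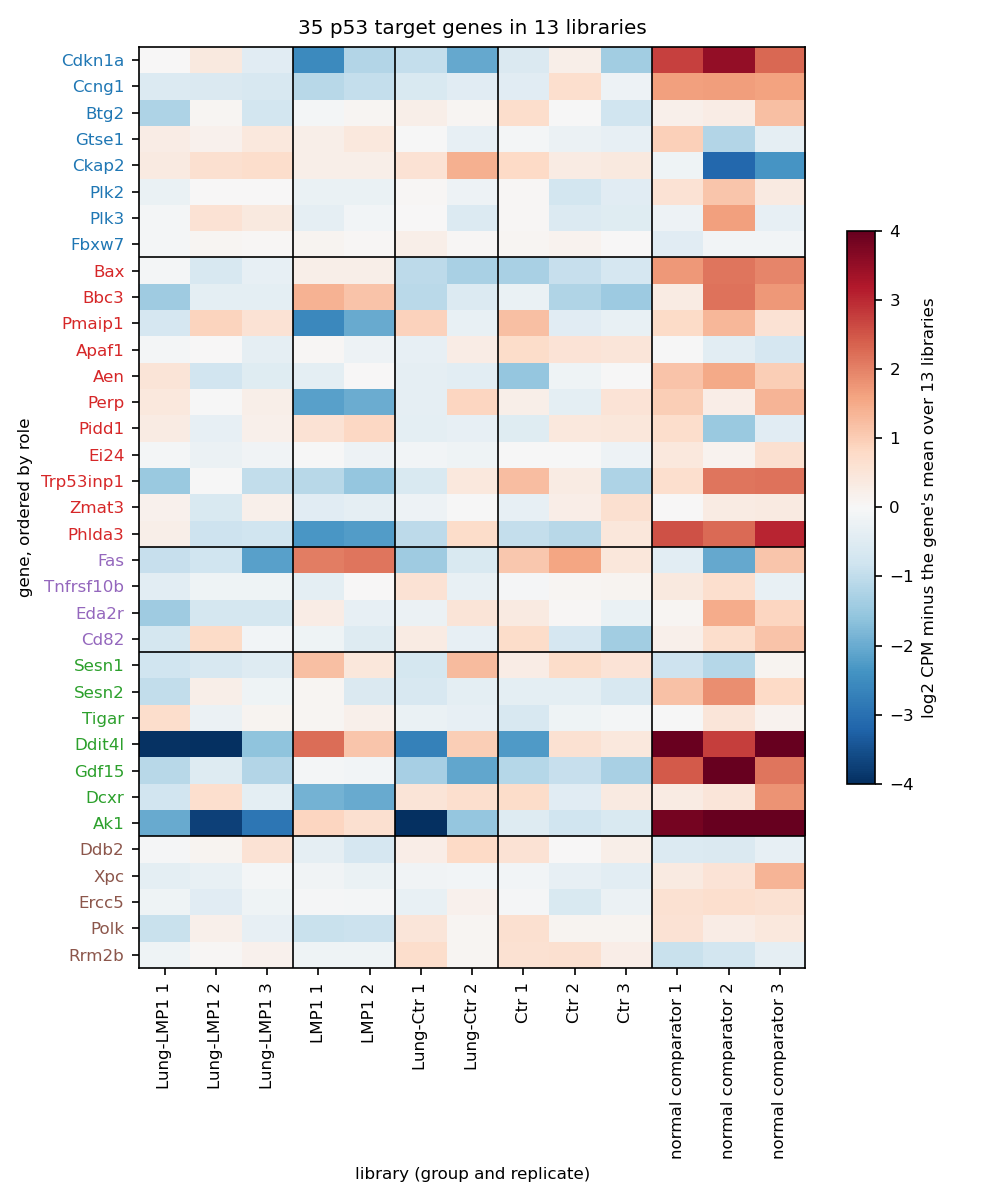
Log2 CPM of each of the 35 genes minus its own mean over the 13 libraries (colour, limits at -4 and 4), with tumour libraries on the left, the comparator on the right and genes grouped by role from cell cycle (top) to DNA repair (bottom). The comparator columns are red for Cdkn1a, Ccng1, Bax, Phlda3, Gdf15 and Ak1, and Ckap2 is blue in comparator replicates 2 and 3, at 7.66 and 13.1 CPM.

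The cell cycle genes hold the best known p53 target. Cdkn1a (chromosome 17, 29090976 to 29100727) encodes p21, the inhibitor of cyclin-dependent kinases through which p53 arrests cells. Cdkn1a had 50.5, 65.4 and 36.5 CPM in the Lung-LMP1 libraries, 8.52 and 22.1 in the LMP1 pair, 26.0 and 12.2 in the Lung-Ctr pair and 33.3, 58.5 and 19.0 in Ctr, against 334, 575 and 249 in the comparator. The highest tumour library, a Lung-LMP1 one, stood far below the lowest comparator library, and Cdkn1a fell 14.5-fold (log2 fold change -3.86, SE 0.36, adjusted p = 4.73e-05 by edgeR). Ccng1 (chromosome 11, 40748552 to 40755311), cyclin G1, takes part in the feedback on p53. Ccng1 had 79.4, 76.3 and 73.1 CPM in the Lung-LMP1 libraries, 53.9 and 58.9 in the LMP1 pair, 75.5 and 83.4 in the Lung-Ctr pair and 84.6, 182 and 99.4 in Ctr, against 356, 365 and 351 in the comparator. The comparator libraries were nearly equal, no tumour library reached them, and Ccng1 fell 4.54-fold (log2 fold change -2.18, SE 0.17, adjusted p = 2.22e-05 by edgeR). Plk2, a polo-like kinase, fell too (log2 fold change -0.94, SE 0.18, adjusted p = 0.00189 by edgeR), at 128 to 224 CPM in tumours against 277 to 463 CPM in the comparator, without overlap.

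Ckap2, a microtubule protein of the mitotic spindle, was the cell cycle member that rose. It had 86.0, 104 and 108 CPM in the Lung-LMP1 libraries, 79.2 and 78.8 in the LMP1 pair, 101 and 179 in the Lung-Ctr pair and 116, 85.1 and 88.6 in Ctr, against 59.2, 7.66 and 13.1 in the comparator. All tumour libraries exceeded the comparator, whose replicate 1 was several times above the other two (log2 fold change 1.90, SE 0.53, adjusted p = 0.0144 by edgeR). Without comparator replicate 1 the log2 fold change was 3.23 (edgeR adjusted p = 4.73e-05), and without comparator replicate 3 it was 1.57 and did not pass (edgeR adjusted p = 0.0652). Cell cycle genes that p53 represses through p21 and the DREAM complex, a list of 20, moved with this library: their summed level was 3648 to 5138 CPM in the tumours, against 2900, 100.1 and 212 CPM in comparator replicates 1, 2 and 3. Of these 20 genes 4 rose and none fell, with a median log2 fold change of 1.91, and the 20% that rose stood near the 18.9% of all genes. An unadjusted p under 0.05 was found for 12 of them (60%, against 52.7% of genes). The part of cell division in the Ckap2 result was not tested. Gtse1, a G2 and S phase protein that restrains p53, varied in the same replicate, at 32.8 to 55.9 CPM in tumours against 80.1, 18.3 and 32.7 CPM in comparator replicates 1, 2 and 3, and did not pass (edgeR adjusted p = 0.927). Btg2, an antiproliferative factor, Plk3, another polo-like kinase, and Fbxw7, a ubiquitin ligase subunit that targets cyclin E and Myc, did not pass either, with log2 fold changes of -0.75, -0.82 and 0.26.

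The apoptosis genes include the mitochondrial death programme. Bax (chromosome 7, 45461697 to 45466898), which forms pores in the mitochondrial membrane, had 53.5, 36.5 and 44.5 CPM in the Lung-LMP1 libraries, 66.2 and 67.2 in the LMP1 pair, 27.3 and 22.8 in the Lung-Ctr pair and 22.9, 29.9 and 35.7 in Ctr, against 189.8, 247 and 217 in the comparator. No tumour library reached the comparator, the LMP1 pair was the highest among tumours, and Bax fell 5.76-fold (log2 fold change -2.53, SE 0.16, adjusted p = 7.6e-06 by edgeR). The size of this difference is uncertain, because the comparator column for Bax stood 2.31 times above Normal_nasopha in CPM, whereas for the other 34 members that ratio was 0.887 to 1.28. In the table of normal tissues Bax had 78.2, 108 and 97.4 CPM in Normal_nasopha, still above every tumour library. Exons of Bax also overlap those of Gm45808 on the same strand over 12.2% of their length.

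Bbc3 and Pmaip1 encode PUMA and Noxa, short proteins that free Bax to act. Bbc3 had 2.57, 5.20 and 5.18 CPM in the Lung-LMP1 libraries, 18.0 and 15.1 in the LMP1 pair, 3.27 and 4.72 in the Lung-Ctr pair and 5.66, 2.95 and 2.50 in Ctr, against 8.63, 31.4 and 23.0 in the comparator. The LMP1 pair lay inside the comparator range and all other tumour libraries lay below it, and Bbc3 fell in the mean of tumours (log2 fold change -1.91, SE 0.36, adjusted p = 0.0017 by edgeR). Pmaip1 had 41.8, 124 and 100.1 CPM in the Lung-LMP1 libraries, 11.2 and 16.6 in the LMP1 pair, 127 and 54.4 in the Lung-Ctr pair and 154, 48.1 and 54.1 in Ctr, against 114, 166 and 99.3 in the comparator. The LMP1 pair was the lowest, 4 other tumour libraries lay below the comparator, and 4 stood above its lowest library. Pmaip1 passed in the mean (log2 fold change -1.22, SE 0.39, adjusted p = 0.0258 by edgeR), but not without the LMP1 group (log2 fold change -0.55, edgeR adjusted p = 0.302), without LMP1 replicate 1 (edgeR adjusted p = 0.0562) or without comparator replicate 2 (edgeR adjusted p = 0.115).

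Phlda3, a pleckstrin homology protein that blocks Akt, had 78.0, 37.8 and 38.2 CPM in the Lung-LMP1 libraries, 13.3 and 14.3 in the LMP1 pair, 32.0 and 111 in the Lung-Ctr pair and 34.8, 31.0 and 90.7 in Ctr, against 388, 324 and 553 in the comparator. It was low throughout the tumours, lowest in LMP1, and fell 10.6-fold (log2 fold change -3.41, SE 0.38, adjusted p = 0.000125 by edgeR). Aen, a nuclease of apoptosis, Trp53inp1, a nuclear stress protein, Perp, a membrane protein of desmosomes, and Ei24, a protein of the endoplasmic reticulum, also fell, with log2 fold changes of -1.56, -2.24, -1.28 and -0.57. Zmat3, an RNA-binding protein, did not pass. It had 90.1, 53 and 93.2 CPM in the Lung-LMP1 libraries, 58.9 and 62.7 in the LMP1 pair, 69.4 and 80.7 in the Lung-Ctr pair and 64.3, 96.4 and 127 in Ctr, against 81.8, 100.3 and 104 in the comparator. These ranges overlapped (log2 fold change -0.34, SE 0.22, adjusted p = 0.224 by edgeR). Apaf1, the core of the apoptosome, and Pidd1, the scaffold that activates caspase-2, had log2 fold changes of 0.42 and 0.27 and did not pass.

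**Figure D2:**
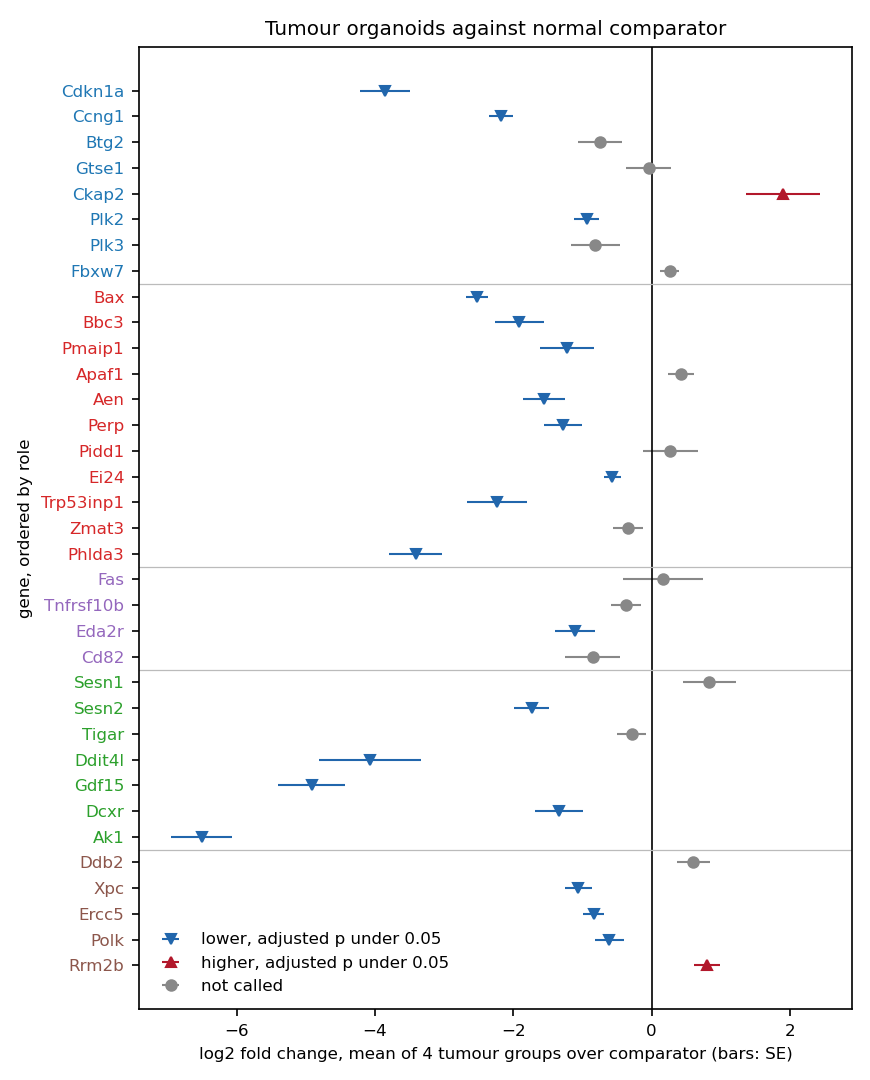
Log2 fold change of each of the 35 genes, mean of the 4 tumour groups over the comparator, with bars of 1 SE. Downward triangles mark the 20 genes that fell, upward triangles Ckap2 and Rrm2b, which rose, and circles the 13 that did not pass.

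Among death receptors and surface proteins only Eda2r, the receptor for ectodysplasin A2, passed. It had 5.15 to 19.5 CPM in tumours against 14.7 to 38.3 CPM in the comparator (log2 fold change -1.11, SE 0.29, adjusted p = 0.0095 by edgeR), and did not pass without comparator replicate 2 (log2 fold change -0.75, edgeR adjusted p = 0.0772). Fas, the death receptor, spanned 0.399 to 8.73 CPM over the tumours, a range of 21.9 times, against 0.454 to 4.21 CPM in the comparator. Tnfrsf10b, the receptor for TRAIL, and the tetraspanin Cd82 had log2 fold changes of -0.37 and -0.86 and overlapped the comparator.

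The stress and metabolism genes held the 3 members of largest fall. Ak1, an adenylate kinase that balances adenine nucleotides, had 0.474, 0.122 and 0.239 CPM in the Lung-LMP1 libraries, 3.71 and 3.18 in the LMP1 pair, 0.0696 and 0.664 in the Lung-Ctr pair and 1.40, 1.15 and 1.32 in Ctr, against 29.0, 101 and 92.9 in the comparator. Every tumour library was under 4 CPM and every comparator library above 29, and Ak1 fell 90.9-fold (log2 fold change -6.51, SE 0.44, adjusted p = 9.35e-06 by edgeR). Gdf15, a secreted stress cytokine, had 3.66, 5.63 and 3.51 CPM in the Lung-LMP1 libraries, 7.58 and 7.44 in the LMP1 pair, 3.13 and 1.86 in the Lung-Ctr pair and 3.60, 4.25 and 3.20 in Ctr, against 44.0, 289 and 35.7 in the comparator. The comparator spread was wide, because replicate 2 was several times above the other two, and the tumours lay below all 3 (log2 fold change -4.92, SE 0.49, adjusted p = 6.8e-05 by edgeR). Without comparator replicate 2 the log2 fold change of Gdf15 was -3.32 (edgeR adjusted p = 5.21e-05). Ddit4l, an inhibitor of mTORC1 signalling, had 0.0677, 0 and 0.479 CPM in the Lung-LMP1 libraries, 7.42 and 3.38 in the LMP1 pair, 0.209 and 3.06 in the Lung-Ctr pair and 0.294, 2.38 and 2.09 in Ctr, against 24.6, 10.8 and 26.8 in the comparator. One Lung-LMP1 library had no count, where 3 counts would be 0.184 CPM, and all tumours lay below the comparator (log2 fold change -4.07, SE 0.73, adjusted p = 0.00139 by edgeR). Without Lung-Ctr replicate 2 its log2 fold change was -4.79.

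The sestrins, which curb mTORC1 and oxidative stress, parted. Sesn2 had 15.8 to 36.6 CPM in the tumours against 53.8 to 114 CPM in the comparator, without overlap (log2 fold change -1.74, SE 0.25, adjusted p = 0.0004 by edgeR). Sesn1 had 17.5 to 72.3 CPM in the tumours against 13.7 to 32.5 CPM in the comparator and did not pass (log2 fold change 0.83, SE 0.38, adjusted p = 0.101 by edgeR). Sesn2 is also induced by the stress factor ATF4, and of a list of 10 ATF4 genes that includes it 6 fell and 2 rose, with a summed level of 2174 to 3900 CPM in tumours against 3624 to 5806 CPM in the comparator; the part of ATF4 in the Sesn2 and Gdf15 values was not tested. Dcxr, a reductase of carbonyl compounds and xylulose, fell (log2 fold change -1.33, SE 0.35, adjusted p = 0.00973 by edgeR), though not without comparator replicate 3 (log2 fold change -0.71, edgeR adjusted p = 0.135). Tigar, which lowers glycolysis, did not pass (log2 fold change -0.29).

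The DNA repair genes changed by less. Xpc, which recognises distorted DNA, had 15.6 to 19.6 CPM in the 10 tumour libraries, a range of only 1.26 times, against 26.5 to 53.2 CPM in the comparator, and fell (log2 fold change -1.06, SE 0.20, adjusted p = 0.0016 by edgeR). Ercc5, the nuclease that cuts beside the lesion, had 23.7 to 40.5 CPM in tumours against 55.8 to 58.3 CPM in the comparator and fell (log2 fold change -0.84, SE 0.15, adjusted p = 0.00138 by edgeR). Neither range overlapped the comparator. Polk, a polymerase that copies past lesions, fell as well (log2 fold change -0.61, SE 0.21, adjusted p = 0.0324 by edgeR), with adjusted p-values of 0.0527 to 0.0865 without LMP1 replicate 1 or 2, Lung-Ctr replicate 2, Lung-LMP1 replicate 3 or comparator replicate 1 or 3. Ddb2, another damage sensor, did not pass (log2 fold change 0.60, SE 0.24, adjusted p = 0.0567 by edgeR), and 23.8% of its exon length overlaps Acp2 on the other strand, with the strand used in counting not stated.

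Rrm2b, the p53-induced small subunit of ribonucleotide reductase that supplies nucleotides for repair, went the other way from most members. Rrm2b had 26.9, 31.5 and 34.9 CPM in the Lung-LMP1 libraries, 27.1 and 27.3 in the LMP1 pair, 50.2 and 32.4 in the Lung-Ctr pair and 46.4, 48.1 and 36.7 in Ctr, against 16.5, 18.6 and 24.0 in the comparator. Every tumour library was above every comparator library, and the gene rose 1.75-fold (log2 fold change 0.80, SE 0.19, adjusted p = 0.0056 by edgeR). After correction of each library for transcript length and GC content Rrm2b did not pass (log2 fold change 0.37, edgeR adjusted p = 0.123). Ei24 and Dcxr, called lower without that correction, did not pass under it either. Bax, Phlda3 and Gdf15 still fell under it, with smaller log2 fold changes of -1.39, -2.42 and -4.12, and Bbc3 passed narrowly (edgeR adjusted p = 0.0462).

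**Figure D3:**
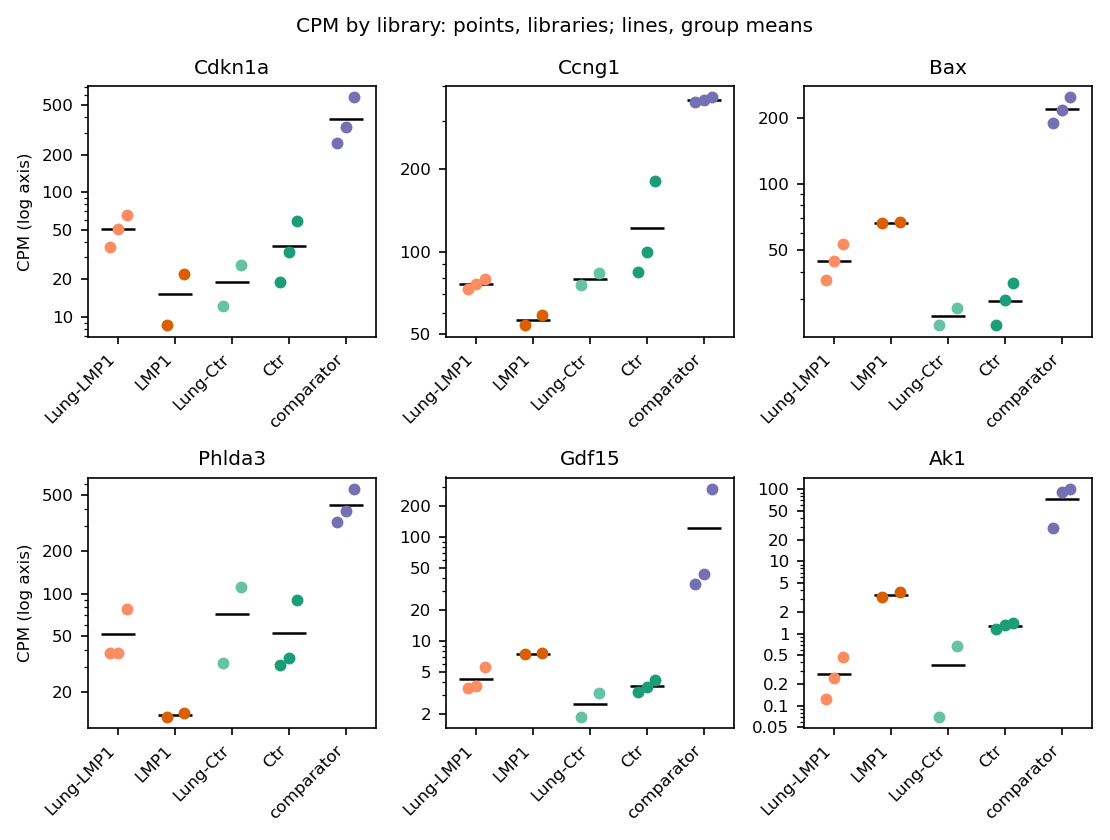
CPM on log axes of Cdkn1a, Ccng1, Bax, Phlda3, Gdf15 and Ak1 in each library (points, in ascending order within a group) with group means (lines), tumour groups on the left and the comparator on the right. In all 6 panels the 10 tumour libraries lie below the 3 comparator libraries, and the LMP1 pair is the highest tumour group in CPM for Bax, Gdf15 and Ak1 and the lowest for Ccng1 and Phlda3.

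Taken 1 group at a time, more members fell than rose in each tumour group. These 4 comparisons share the comparator libraries and are given side by side. In Lung-LMP1 16 members fell and 2 rose (17.4% and 14.6% of all genes), in LMP1 17 fell and 0 rose (14.5% and 13.7%, 28.2% in all), in Lung-Ctr 13 fell and 3 rose (14.2% and 13.2%), and in Ctr 14 fell and 3 rose (19% and 16.1%). In LMP1 21 members had an unadjusted p under 0.05 in either direction (60%, against 42.1% of genes). No member rose in all 4 groups (5.83% of genes did), and a set of 12 fell in all 4 (34.3%, against 5.81% of genes): Cdkn1a, Ccng1, Plk2, Bax, Aen, Ei24, Phlda3, Sesn2, Gdf15, Ak1, Xpc and Ercc5. Of these, Ei24 stood 1.28 times higher in the comparator than in Normal_nasopha. Its tumour range of 88.2 to 104 CPM overlapped the 90.2 to 125 CPM of Normal_nasopha. Without comparator replicate 3 Ei24 did not pass in any of the 4 groups, and Ercc5 and Xpc did not pass in Lung-Ctr. Without comparator replicate 2 Aen did not pass in LMP1, Lung-Ctr or Lung-LMP1, nor Plk2 in Lung-Ctr or Lung-LMP1. Cdkn1a had log2 fold changes of -2.89 in Lung-LMP1, -4.71 in LMP1, -4.37 in Lung-Ctr and -3.48 in Ctr. Bbc3 fell in the 3 groups other than LMP1, where its log2 fold change was -0.39 (edgeR adjusted p = 0.605). Perp, Pmaip1, Dcxr and Polk fell in LMP1 alone of the 4, and Eda2r in Lung-LMP1 alone. Ckap2 and Rrm2b rose in the 3 groups other than LMP1, Apaf1 in Ctr and Ddb2 in Lung-Ctr. In LMP1 Ckap2 had a log2 fold change of 1.51 (edgeR adjusted p = 0.0966). These rises were easily lost. Ckap2 did not pass in Ctr without any 1 Ctr library. Neither Ckap2 nor Rrm2b passed in Lung-LMP1 without any 1 Lung-LMP1 library. Apaf1 did not pass in Ctr without comparator replicate 3, nor Ddb2 in Lung-Ctr without comparator replicate 1 or 2. The groups of 2 libraries carry less weight: leaving out either LMP1 library left 6 calls there, and leaving out Lung-Ctr replicate 1 or 2 left 8 or 9 calls in that group.

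The authors' deposited table for Ctr against the same normal columns lists 3 members higher and 13 lower at an adjusted p under 0.05 (45.7% in all, against 28.8% of genes with a value). The authors' deposited table lists more members than edgeR called among the tumours, with 5 higher and 9 lower in LMP1 against Ctr (40%, against 27.7% of genes) and 9 higher and 5 lower in Lung-LMP1 against LMP1 (40%, against 26.2%).

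Set beside the normal tissues, whose table uses another gene annotation and so allows no test against tumours, 5 members were lower in all 10 tumour libraries than in all 6 normal libraries (14.3%, against 5.49% of 13282 genes found in both tables): Cdkn1a, Ccng1, Ak1, Sesn2 and Xpc. Cdkn1a had 312, 534 and 227 CPM in Normal_nasopha and 78.4, 102 and 86.4 CPM in Normal_lung. Ccng1 had 319.5, 333 and 312 CPM in Normal_nasopha and 185, 207 and 224 CPM in Normal_lung. Ckap2 and Rrm2b were higher in all 10 tumour libraries than in all 6 normal ones (5.71% of members, against 16.7% of genes). Each tissue alone gave other counts. All 10 tumour libraries lay below Normal_lung for 8 members and above it for 11, Perp and Pmaip1 among them. They lay below Normal_nasopha for 12 members and above it for 2. Shares of all genes were not computed for these counts, so they do not show whether the members differ from other genes.

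Further targets and regulators were listed beside the 35. Of 26 further p53 targets 24 were tested, of which 11 fell and 0 rose in the mean of tumours (45.8% and 0%, against 25.8% and 18.9% of genes), with a median log2 fold change of -0.76. Of these 24 genes 13 had an unadjusted p under 0.05 (54.2%, near the 52.7% of all genes). Mdm2, the ubiquitin ligase that degrades p53, had 94.8, 131 and 117 CPM in the Lung-LMP1 libraries, 87.5 and 88.6 in the LMP1 pair, 120.5 and 92.5 in the Lung-Ctr pair and 108, 119 and 99.5 in Ctr, against 180.1, 282 and 209 in the comparator. It fell without overlap (log2 fold change -1.14, SE 0.15, adjusted p = 0.000251 by edgeR). Sfn, the 14-3-3 sigma protein that holds cells before mitosis, and Ppm1d, a phosphatase that ends the p53 response, fell with log2 fold changes of -3.68 and -0.82. Mdm4, the partner of Mdm2, rose (log2 fold change 0.71, SE 0.17, adjusted p = 0.00717 by edgeR). These genes, Mdm2 included, were named after their values were seen.

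The question of LMP1 was asked within the tumours, where every library lacks p53 by label. In LMP1 against Ctr 2 members rose, Bax and Bbc3, and 5 fell, Perp, Pmaip1, Dcxr, Polk and Ccng1. Of 13460 genes 7.36% rose and 9.06% fell, so the 5.71% of members that rose and the 14.3% that fell stood near the background. Perp had 82.1 and 95.1 CPM in LMP1 against 441, 281 and 549 CPM in Ctr (log2 fold change -2.28, SE 0.41, adjusted p = 0.0113 by edgeR). Pmaip1 had 11.2 and 16.6 CPM in LMP1 against 154, 48.1 and 54.1 CPM in Ctr (log2 fold change -2.64, SE 0.69, adjusted p = 0.0346 by edgeR). Dcxr had 11.0 and 10.2 CPM in LMP1 against 68.1, 30.3 and 53.1 CPM in Ctr (log2 fold change -2.28, SE 0.48, adjusted p = 0.0172 by edgeR). For all 3 genes both LMP1 libraries lay below all 8 other tumour libraries.

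Polk and Ccng1 fell by less, with log2 fold changes of -1.21 ± 0.33 and -1.13 ± 0.29 (SE; edgeR adjusted p = 0.0375 and 0.0338). Bax and Bbc3, the pore former and its activator, went the other way. Bax had 66.2 and 67.2 CPM in LMP1 against 22.9, 29.9 and 35.7 CPM in Ctr (log2 fold change 1.15, SE 0.24, adjusted p = 0.0157 by edgeR). Bbc3 had 18.0 and 15.1 CPM in LMP1 against 5.66, 2.95 and 2.50 CPM in Ctr (log2 fold change 2.14, SE 0.45, adjusted p = 0.0179 by edgeR). Neither overlapped Ctr. Cdkn1a, Phlda3 and Zmat3 had log2 fold changes of -1.28, -1.95 and -0.68 and did not pass, and Gdf15 one of 1.01 (edgeR adjusted p = 0.103).

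The LMP1 libraries also stood apart in cell type markers. The 8 mesenchymal genes summed to 2051 and 1643 CPM in LMP1, against 3.0 to 570.2 CPM in Ctr, where replicate 2 was the high one, and 8.9 to 24.0 CPM in Lung-LMP1 and Lung-Ctr. The 5 basal epithelial genes, Krt5 and Trp63 among them, summed to 48.2 and 67.0 CPM in LMP1, against 835 to 3105 CPM in Ctr. Their part in the member differences was not tested. Perp is a known target of p63 as well, and Trp63 had 2.60 and 1.96 CPM in LMP1 against 157, 60.0 and 336 CPM in Ctr (log2 fold change -6.36, SE 1.11, adjusted p = 0.0102 by edgeR). The part of Trp63 in the Perp difference was not tested. These 7 calls rest on both LMP1 libraries, since none passed without either one: without replicate 1 the adjusted p of Perp was 0.127 and of Bax 0.127, and without replicate 2 they were 0.094 and 0.115. The calls of Pmaip1 and Polk also rested on single Ctr libraries. Pmaip1 did not pass without Ctr replicate 1 (log2 fold change -1.93, edgeR adjusted p = 0.0621). Polk did not pass without Ctr replicate 1 or 3 (edgeR adjusted p = 0.0766 and 0.0574). With the length and GC correction only Perp and Dcxr passed (edgeR adjusted p = 0.0300 and 0.00979).

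**Figure D4:**
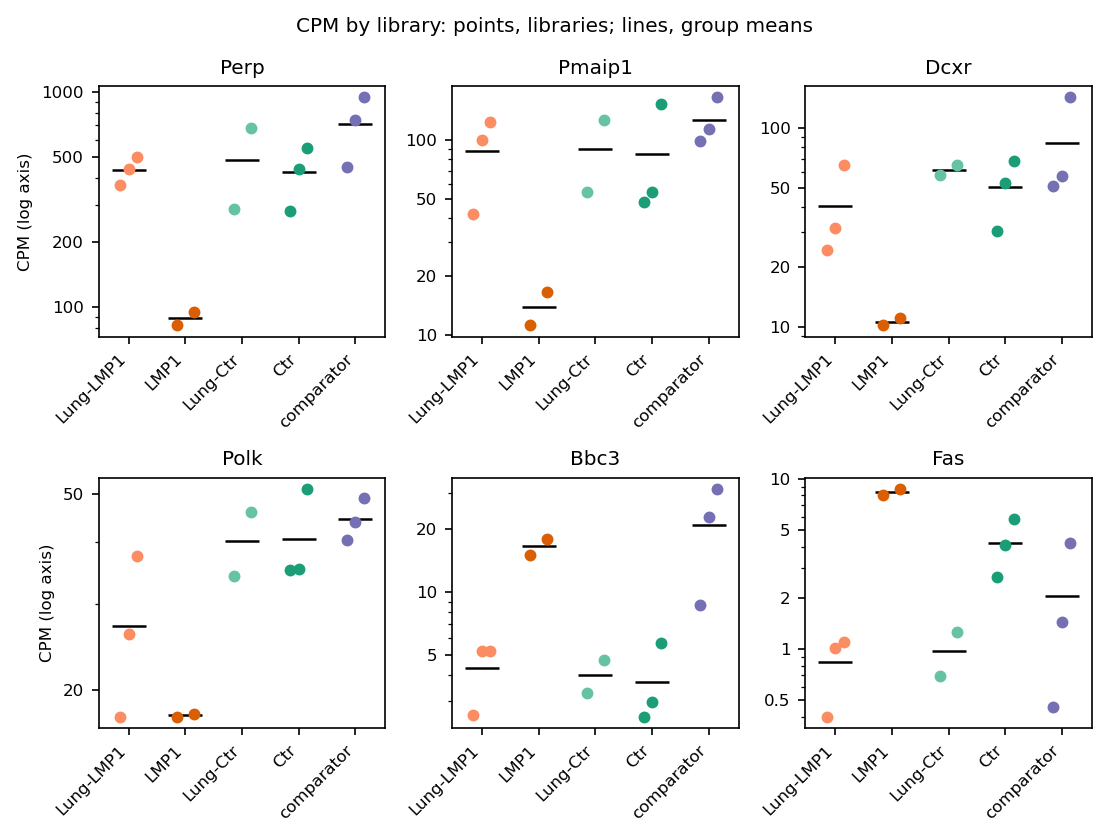
CPM on log axes of Perp, Pmaip1, Dcxr, Polk, Bbc3 and Fas in each library (points, in ascending order within a group) with group means (lines). The LMP1 pair is lowest of the 4 tumour groups for Perp, Pmaip1 and Dcxr, level with 1 Lung-LMP1 library for Polk, and highest for Bbc3 and Fas.

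Lung-LMP1, of the same genotype as LMP1, had other levels of several of these genes. Against LMP1 it had 3 members higher, Perp, Pmaip1 and Dcxr, and 3 lower, Ak1, Fas and Bbc3 (6.17% and 3.95% of genes, 10.1% in all). The comparison reuses the LMP1 libraries, so it is not separate evidence of their values. Markers moved here too: the 5 basal genes were all higher (1844 to 3474 CPM summed in Lung-LMP1 against 48.2 and 67.0 CPM in LMP1, median log2 fold change 6.21), 4 of 6 epithelial genes were higher, and 3 of 7 mesenchymal genes tested were lower (median -6.82). Their part in the member differences was not tested. Perp had 499, 370.4 and 438 CPM in Lung-LMP1 against 82.1 and 95.1 CPM in LMP1 (log2 fold change 2.43, SE 0.42, adjusted p = 0.0109 by edgeR). Fas had 1.02, 1.10 and 0.399 CPM in Lung-LMP1 against 8.08 and 8.73 CPM in LMP1 (log2 fold change -3.17, SE 0.55, adjusted p = 0.0117 by edgeR). Ak1 had 0.474, 0.122 and 0.239 CPM in Lung-LMP1 against 3.71 and 3.18 CPM in LMP1 (log2 fold change -3.46, SE 0.82, adjusted p = 0.0337 by edgeR). None of these pairs of ranges overlapped. Pmaip1, Dcxr and Bbc3 had log2 fold changes of 2.80, 2.06 and -1.81. No member passed without LMP1 replicate 1 or without LMP1 replicate 2, and 2 passed without Lung-LMP1 replicate 2 or 3.

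Between the groups with the Lung prefix calls depended on the tool. In Lung-LMP1 against Lung-Ctr edgeR called 0 of 35 members (0% of genes), 5 had an unadjusted p under 0.05 (14.3%, against 17.1% of genes), and DESeq2 called 1, Bax (log2 fold change 0.87, DESeq2 adjusted p = 0.0289). Bax had 53.5, 36.5 and 44.5 CPM in Lung-LMP1 against 27.3 and 22.8 CPM in Lung-Ctr, without overlap (log2 fold change 0.90, SE 0.25, adjusted p = 0.147 by edgeR). Cdkn1a had 50.5, 65.4 and 36.5 CPM in Lung-LMP1 against 26.0 and 12.2 CPM in Lung-Ctr, also without overlap (log2 fold change 1.47, SE 0.59, adjusted p = 0.253 by edgeR). In the authors' deposited table Cdkn1a was the 1 member called in this comparison (log2 fold change 1.46, adjusted p = 0.0444). In Lung-Ctr against Ctr edgeR called 0 members (0% of genes), 2 had an unadjusted p under 0.05 (5.71%, against 5.33% of genes), Ckap2 and Fas, and DESeq2 called 0. Fas had 0.696 and 1.26 CPM in Lung-Ctr against 4.11, 5.83 and 2.64 CPM in Ctr, without overlap, and did not pass (log2 fold change -2.03, SE 0.59, adjusted p = 0.915 by edgeR).

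The difference between these comparisons, Lung-LMP1 against Lung-Ctr minus LMP1 against Ctr, was tested as an interaction. With edgeR 0 members passed (0.892% of genes, 0.81% higher and 0.0817% lower), 8 had an unadjusted p under 0.05 (22.9%, against 15.6% of genes), and DESeq2 called 3: Perp, Cdkn1a and Pmaip1, with log2 differences of 2.17, 2.73 and 2.63 (DESeq2 adjusted p = 0.00302, 0.0150 and 0.0358). In edgeR Perp had 2.19 ± 0.55 (SE; edgeR adjusted p = 0.111), and passed without Lung-Ctr replicate 2 (log2 difference 2.94, edgeR adjusted p = 0.0357). The log2 fold change of Perp was -0.10 in Lung-LMP1 against Lung-Ctr and -2.28 in LMP1 against Ctr, and that of Pmaip1 was 0.01 and -2.64; with edgeR neither difference between them passed.

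Within the 10 p53-null libraries the members differed widely in how steady they were. The highest tumour library exceeded the lowest by 1.18 times for Ei24, 1.23 times for Fbxw7 and 1.26 times for Xpc, and by 13.8 times for Pmaip1 and 21.9 times for Fas. With libraries under 3 counts set to that number, 2 for each gene, the highest was 20.2 times the lowest for Ak1 and 40.4 times for Ddit4l. Both LMP1 libraries lay above the 8 other tumour libraries for 7 members (20% of members, 19.4% of genes) and below them for 7 (20%, against 13.8%).

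The normal tissues, which carry no tumour allele in the labels, also differed. In Normal_nasopha 12 members were higher than in Normal_lung and 2 lower, Btg2 and Dcxr, of 35 tested (15.4% and 15.6% of 15886 genes, 31.1% in all). The median log2 fold change was 0.63 over members and 0.13 over all genes. Pmaip1 had 102, 149 and 89.9 CPM in Normal_nasopha against 2.43, 0.997 and 1.17 CPM in Normal_lung (log2 fold change 6.06, SE 0.46, adjusted p = 0.000334 by edgeR). Perp had 681, 414 and 856 CPM in Normal_nasopha against 35.2, 26.1 and 29.4 CPM in Normal_lung (log2 fold change 4.27, SE 0.34, adjusted p = 0.000376 by edgeR). The gap between the tissues was far wider than the spread within either for both genes.

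Phlda3, Cdkn1a and Eda2r were also higher in Normal_nasopha, with log2 fold changes of 2.50 ± 0.24, 1.87 ± 0.34 and 2.61 ± 0.48 (SE; edgeR adjusted p = 0.000697, 0.00687 and 0.00741). Gdf15 had 41.5, 270.0 and 32.8 CPM in Normal_nasopha against 4.37, 15.4 and 8.16 CPM in Normal_lung (log2 fold change 3.50, SE 0.94, adjusted p = 0.0297 by edgeR). Plk3 had 44.5, 164 and 39.3 CPM in Normal_nasopha against 8.34, 13.2 and 9.37 CPM in Normal_lung (log2 fold change 2.87, SE 0.61, adjusted p = 0.0124 by edgeR). Replicate 2 of Normal_nasopha was the high one for both, and without it their log2 fold changes were 1.84 and 1.86. Gdf15 did not pass without any 1 Normal_lung replicate (edgeR adjusted p = 0.101, 0.0575 and 0.103), nor Plk3 without Normal_lung replicate 1 or 3 (edgeR adjusted p = 0.0556 and 0.0549). Btg2 had 98.8, 103 and 191 CPM in Normal_nasopha against 317, 268 and 377 CPM in Normal_lung (log2 fold change -1.45, SE 0.31, adjusted p = 0.0135 by edgeR), and did not pass without Normal_lung replicate 3 (edgeR adjusted p = 0.0559). Dcxr was lower too (log2 fold change -1.38, SE 0.40, adjusted p = 0.0384 by edgeR), but not without Normal_nasopha replicate 1 or 2 or any 1 Normal_lung replicate (edgeR adjusted p = 0.0735 to 0.122). Ccng1, Bax, Bbc3 and Zmat3 did not pass, with log2 fold changes of 0.50, 0.39, -0.89 and 0.24. The 2 tissues differ in cell types: the basal genes summed to 2779 to 14190 CPM in Normal_nasopha against 239 to 330 CPM in Normal_lung, and their part was not tested.

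**Figure D5:**
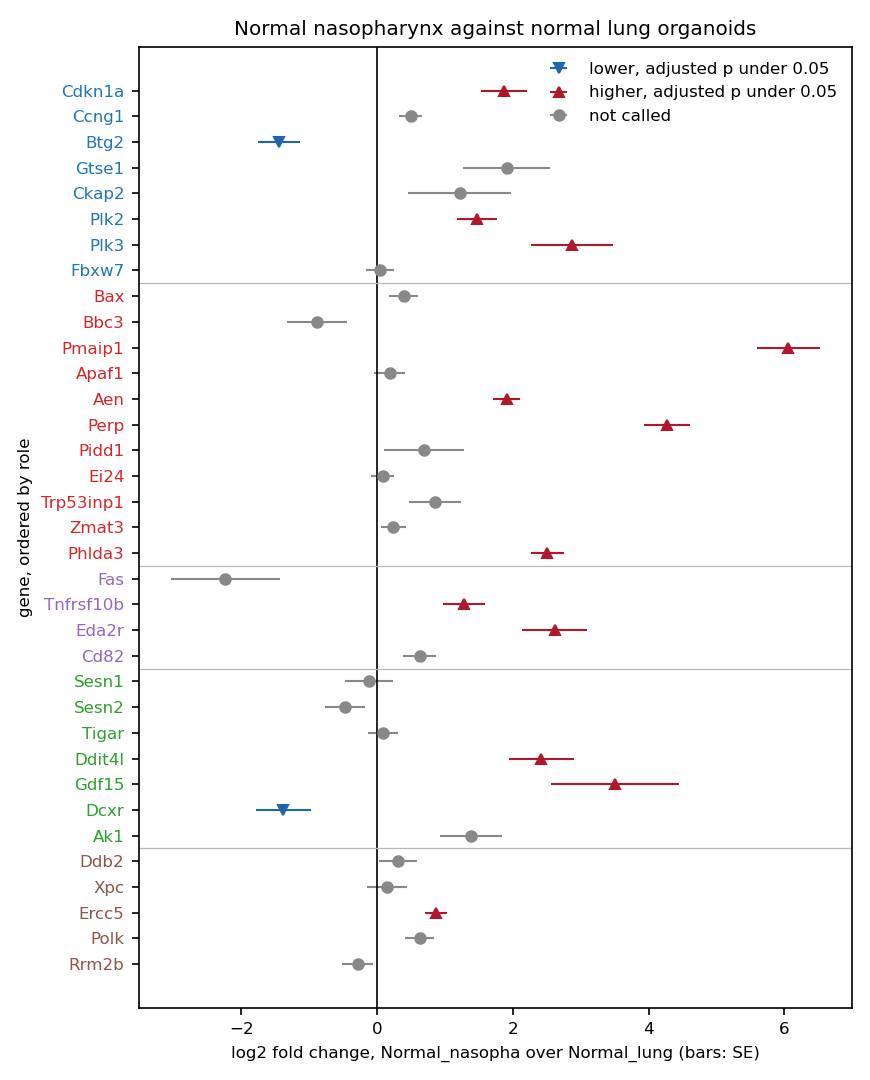
Log2 fold change of each of the 35 genes, Normal_nasopha over Normal_lung, with bars of 1 SE. Upward triangles mark the 12 genes that were higher, led by Pmaip1 and Perp, downward triangles Btg2 and Dcxr, and circles the 21 that did not pass.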

How the data were processed

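The submitters' processing notes name STAR, DESeq2, DESeq and the build mm10, but neither versions nor roles, with no word on the counting tool or its strand setting. Whole-number gene counts deposited by the authors were the basis of all tests. Log2 fold changes and adjusted p-values that the authors deposited are quoted by their source. Another 32 deposited columns, scaled per library, were left aside.

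The test was that of edgeR 4.0.16 under R 4.3.3 (filterByExpr by group, TMM, robust quasi-likelihood F-test, Benjamini-Hochberg adjustment over all genes tested, calls at an adjusted p under 0.05). A fit of the 13 symbol-keyed libraries gave the comparisons with the comparator, a fit of the 10 tumour libraries those among tumours, and a fit of 6 libraries the normal tissues. SE is that implied by the F-test. Scripts were tested on simulated counts. Symbols turned into dates, 27 in number, touched no member. Exon overlaps and gene positions are from GENCODE on GRCm38 (mm10). Where replicates are not separate animals or cultures, the p-values reflect technical spread only.

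The members and all gene lists were chosen with earlier results of these data known. Values in every library are given for Cdkn1a, Ccng1, Bax, Bbc3, Pmaip1, Zmat3, Phlda3 and Gdf15 and for up to 5 called members of largest change in each direction, others by range or count; members named beyond this were chosen after their values were seen. Alternatives were DESeq2 1.42.0, RLE size factors, no count filter, the replicate number as a block, smooth length and GC offsets per library (mgcv 1.9.3), each library left out, only the groups compared, and the tumour mean without LMP1.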

Additional observations from a re-analysis of the deposited data

How the results depend on the processing

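No called fold change of a named member reversed its direction under the alternatives run. In the mean of tumours against the comparator 22 members were called, 19 to 23 under the alternatives other than leaving out a library and 20 to 25 with 1 library left out, and 17 passed whichever library was left out. Other counts moved more. In Lung-Ctr against the comparator 16 members were called, but 10 with the replicate block, 8 with the length and GC correction and 4 with only the groups compared. In LMP1 against Ctr 7 were called, but 13 by DESeq2, 0 with the replicate block and 2 with the length and GC correction. In Lung-LMP1 against LMP1 6 were called, but 10 by DESeq2, 1 with the replicate block and 11 with only the groups compared. Where edgeR called 0, DESeq2 called 1 in Lung-LMP1 against Lung-Ctr and 3 in the interaction. With 1 library left out the calls ranged from 15 to 20 in Ctr, 6 to 21 in LMP1, 8 to 16 in Lung-Ctr and 12 to 19 in Lung-LMP1 against the comparator, 0 to 7 in LMP1 against Ctr, 0 to 5 in Lung-LMP1 against LMP1, 0 to 1 in the interaction, 0 in both other tumour comparisons and 8 to 16 in the normal tissues. The cause of these shifts was not tested, except that leaving out a library leaves fewer samples; where 1 sample remained in a group it was assumed to vary like the others. Each fold change of a named member was counted again for every library left out, which gave 83 lost calls and 681 unchanged outcomes. The other alternatives counted each fold change 1 time. With the length and GC correction 16 lost their call and 102 were unchanged. Without the count filter 6 lost it and 112 were unchanged. By DESeq2 7 passed newly and 111 were unchanged. Same-numbered libraries of different groups did not deviate together (correlations from -0.33 to 0.17). Deviations were taken from means of 2 or 3 libraries, so the check cannot tell whether equal numbers share an animal, culture or batch. Depth limits Ddit4l and Ak1, whose lowest tumour libraries hold 0 and 1 counts.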

Other observations

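The relatives of p53 were uneven across the tumours. Trp63, which encodes the p53 relative of basal epithelium, had 219, 126 and 156 CPM in the Lung-LMP1 libraries, 2.60 and 1.96 in the LMP1 pair, 52.2 and 342 in the Lung-Ctr pair and 157, 60.0 and 336 in Ctr, against 216, 58.8 and 308 in the comparator. Both LMP1 libraries were far below all others. Trp73, the other relative, had 2.57, 0.306 and 0.798 CPM in the Lung-LMP1 libraries, 0.111 and 0.203 in the LMP1 pair, 0.0696 and 14.1 in the Lung-Ctr pair and 0.588, 0.36 and 14.9 in Ctr, against 2.41, 0.284 and 0.481 in the comparator. Lung-Ctr replicate 2 and Ctr replicate 3 stood above the rest.

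Of the 10 ATF4 genes listed, Chac1, Ddit3 and Atf4 fell in the mean of tumours over the comparator, with log2 fold changes of -2.77, -2.73 and -1.16, and Psat1 and Phgdh, enzymes of serine synthesis, rose by 0.76 and 0.69. These 5 were chosen after their values were seen.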
